A study of Rattus norvegicus with 10 samples.

Results

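The SLC25 genes encode the mitochondrial carriers, and they were followed in RNA sequencing of rat distal colon epithelium on chow with or without sodium cholate. The members were all rows of the count table whose gene symbol begins with Slc25a followed by a digit, which gave 49 of 23422 genes. Of these 49 carriers, 38 passed the filter on low counts and were tested among 12385 genes, 7 had too few reads to be tested, and 4 were listed at 0 in every library.

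Mitochondrial carriers are small proteins that sit in the inner mitochondrial membrane, built from repeats of a pair of membrane-spanning helices, and most exchange one solute for another. They carry adenine nucleotides, phosphate, metabolic acids, amino acids, fatty acyl carnitines, cofactors and iron between the matrix and the cytosol. The colonocyte is a cell that burns much of its fuel in mitochondria, and the ADP/ATP and phosphate carriers supply the ATP synthase there.

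The animals were male Wistar Munich rats kept singly in metabolic cages, and their age is not given in the labels. After 3 days of acclimatization on standard chow, 6 rats stayed on it and 6 received the same chow containing 1% w/w sodium cholate, a primary bile acid salt, and both diets ran for 10 days. Cells shaken from EDTA-filled sacs of distal colon gave one library per rat, from control rats 1, 2, 5, 6 and 9 and cholate rats 3, 4, 7, 8 and 11. These were the 5 rats of each diet whose extracts held most RNA, so the choice was not random.

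Libraries held 14337356 to 45285762 counts. The first principal component of all tested genes (46.8% of the variance) did not follow diet: control rats 5 and 9 and cholate rats 8 and 11 had positive scores and the other 6 rats negative ones. The rank correlation across genes between a library's deviation and coding length was -0.23, -0.40 and -0.34 in control rat 9 and cholate rats 8 and 11, and 0.10 to 0.31 in the 6 rats with negative scores. Control rat 5, whose positive score was small, lay with those 6 at 0.12. The second component (30.6%) separated the diets. Fold changes below are therefore also given within the 6 rats with negative scores and within the 4 with positive scores, a division made after the data were seen. The colon epithelium markers were all detected, with summed levels of 17808 to 30671 CPM (counts scaled to a common library total) in controls and 26632 to 40026 CPM on cholate.

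In control rats the carriers were dominated by those that serve ATP synthesis. Levels of different genes were compared as CPM, scaled by the trimmed mean of M values (TMM), per kilobase of coding length. On this scale Slc25a5, the ADP/ATP carrier of proliferating and epithelial tissues, stood at 1209 ± 134 CPM per kilobase (SD, n = 5). Slc25a3, the phosphate carrier, stood at 893 ± 158 CPM per kilobase. Together these carriers made up 62.9 ± 1.96% (SD, n = 5) of the summed level per kilobase of the 49 genes with an Slc25a symbol in control rats.

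Next among the genes with an Slc25a symbol came carriers of metabolic acids and acyl groups. Slc25a10, the dicarboxylate carrier, stood at 274 ± 48.8 CPM per kilobase (SD, n = 5) in control rats. Slc25a11, the oxoglutarate carrier of the malate-aspartate shuttle, stood at 135 ± 21.5 CPM per kilobase. Slc25a20, which exchanges acylcarnitines for carnitine, stood at 90.6 ± 8.75 CPM per kilobase. Each of these first 5 carriers was above the next in line in 5 of 5 control rats, so their order did not depend on which rat was read.

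Just below them neighbours in the order were not separated. Slc25a17, a peroxisomal carrier of coenzyme A and related cofactors, had 74.4 ± 4.20 CPM per kilobase and was above Slc25a39, a glutathione carrier at 72.1 ± 14.5 CPM per kilobase, in 3 of 5 control rats. Slc25a39 was above Slc25a1, the citrate carrier at 69.9 ± 10.96 CPM per kilobase, in 3 of 5 rats, and Slc25a1 was above Slc25a24 in 2 of 5. With exon length in place of coding length the same 8 carriers led, but Slc25a10 moved from the third place to the fifth. In all, 4 carriers exceeded 100 CPM per kilobase, 22 lay between 10 and 100, and 12 of the tested carriers lay under 10.

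**Figure D1:**
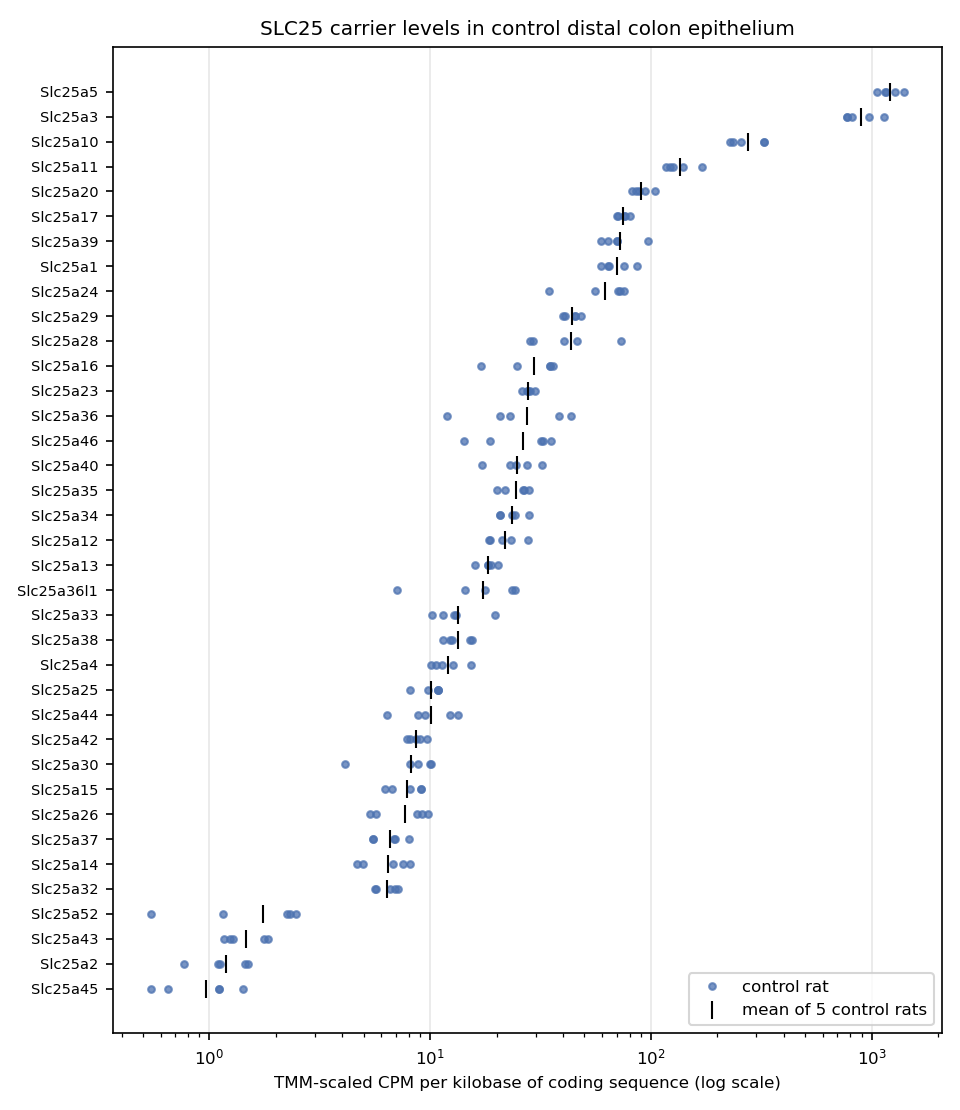
Level of 37 tested SLC25 carriers in each of the 5 control rats (points) and their mean (black mark), as TMM-scaled CPM per kilobase of coding sequence on a log axis. Slc25a5 and Slc25a3 lie apart from the rest, at means of 1209 and 893, and Slc25a45 is the lowest of the tested carriers at 0.965.

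Between diets, the clearest changes were a rise of Slc25a4, the ADP/ATP carrier best known from heart and skeletal muscle, and a fall of Slc25a23, a calcium-regulated ATP-Mg/phosphate carrier. These were the 2 of 38 tested carriers called at an adjusted p under 0.01 with a fold change over 2 (edgeR quasi-likelihood test, Benjamini-Hochberg adjustment over all 12385 genes), which is 5.26% of them beside 3.21% of all tested genes. By direction, 1.1% of all tested genes were called higher and 2.12% lower. At an adjusted p under 0.05 with no limit on fold, 7 carriers (18.4%) were called, beside 13.8% of all tested genes. Slc25a4, Slc25a5, Slc25a13, Slc25a20 and Slc25a29 rose and Slc25a23 and Slc25a44 fell. Among all tested genes 6.48% rose and 7.28% fell under that rule.

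The looser count depended on the libraries used. It ran from 3 without control rat 1 to 9 without control rat 9, and it was 4 without control rat 2 or control rat 6. It was 14 in the 6 rats with negative scores and 20 when the division of the libraries was added to the model. Under the same rule 969 of 12469 genes were called without control rat 1 and 2120 of 12498 without control rat 9. The numbers were 988 of 12493 without control rat 2 and 1090 of 12487 without control rat 6. They were 4865 of 12648 in the 6 rats and 4416 of 12385 with the division. Groups did not overlap for 7 carriers, 4 higher and 3 lower on cholate. Among all tested genes 13.1% did not overlap, 6.3% higher and 6.8% lower. Of the 38 log2 fold changes 23 were positive (60.5%, against 48.9% of all tested genes), and their median was 0.19 against -0.01 for all tested genes.

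**Figure D2:**
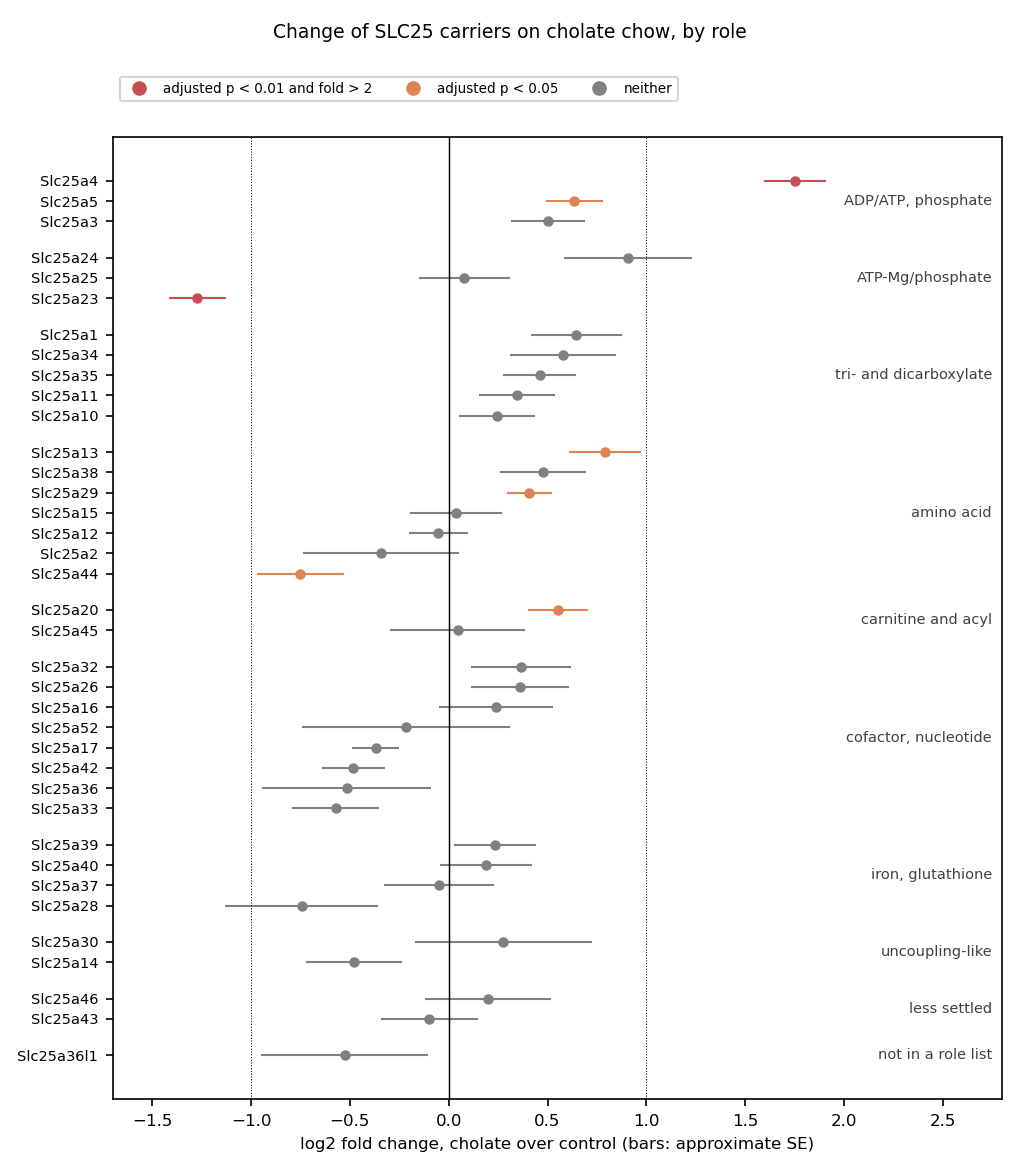
log2 fold change (cholate over control, bars approximate SE, 5 rats per diet) of 37 tested carriers, grouped by the solute they carry; dotted lines mark a fold of 2. Slc25a4 at 1.75 and Slc25a23 at -1.27 lie outside those lines, and the carriers not called at an adjusted p under 0.05 lie between -0.74 and 0.91.

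Among the ADP/ATP and phosphate carriers, which pass ADP and phosphate into the matrix and ATP out, Slc25a4 (rn6 chromosome 16, 49266903 to 49270698, plus strand, 4 exons) had 11.3, 9.58, 10.2, 13.7 and 9.09 TMM-scaled CPM in control rats 1, 2, 5, 6 and 9. It had 39.4, 37.3, 29.2, 37.6 and 38.0 CPM in cholate rats 3, 4, 7, 8 and 11. Every cholate rat was above every control rat, and cholate rat 7 was the lowest of its group. The level rose 3.37-fold (log2 1.75, SE 0.16, adjusted p = 0.00035 by edgeR). The log2 fold change was 1.64 in the 6 rats and 1.93 in the 4, and the stricter call was kept in all 10 fits that left out one rat and in all 14 other settings.

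Slc25a5 (rn6 chromosome X, 123404570 to 123407637, plus strand, 4 exons) had 947, 1047, 1140.0, 1028 and 1261 CPM in the control rats. On cholate it had 1321, 1512, 1642, 2125 and 1822 CPM. The groups did not overlap, and cholate rats 8 and 11 were highest. It rose by 0.64 on the log2 scale (SE 0.14, adjusted p = 0.0154 by edgeR), with 0.60 in the 6 rats and 0.68 in the 4. The looser call held in all 10 fits without one rat and in 13 of the 14 other settings, the exception being the 4 rats alone.

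Slc25a4 remained the minor ADP/ATP carrier on both diets. Its share of the summed Slc25a4 and Slc25a5 level per kilobase was 1.18, 0.907, 0.885, 1.31 and 0.715% in control rats 1, 2, 5, 6 and 9. It was 2.90, 2.41, 1.75, 1.74 and 2.04% in cholate rats 3, 4, 7, 8 and 11. The mean share was 1.00 ± 0.242% (SD, n = 5) in controls and 2.17 ± 0.491% on cholate, with no overlap. The proteins are close paralogs, so reads from stretches they share may have been assigned to either gene.

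Slc25a3 (rn6 chromosome 7, 31816601 to 31824064, minus strand) had 928, 972, 1165, 921 and 1356 CPM in control rats and 1184, 1217, 1324, 2022 and 1828 CPM in cholate rats. Its groups overlapped, with control rat 9 above cholate rats 3, 4 and 7, and its log2 fold change of 0.50 (SE 0.19) did not pass (adjusted p = 0.0980 by edgeR). It was called at an adjusted p under 0.05 with library-size scaling, in limma-voom with weights for library quality, with 1 surrogate variable (an unlabelled source of variation estimated from the data) in the model, with the division of the libraries in the model, and in the 6 rats. Slc25a31, the ADP/ATP carrier of testis, had 1 read in all libraries together.

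Markers of other cells moved beside these carriers. The muscle list, of which 6 of 13 genes could be tested, summed to 57.1 to 82.2 CPM in controls and 13.8 to 32.9 CPM on cholate, with Ckm and Lmod1 listed at 0. At an adjusted p under 0.05 by edgeR 3 of the 6 fell, namely Des, Actn2 and Myh11, and 0 rose. Des, the muscle intermediate filament, was at 38.2 ± 8.05 CPM in controls (SD, n = 5) and made up most of the summed difference (log2 -3.10, adjusted p = 0.000417 by edgeR). Acta1, skeletal muscle actin, was at 1.66 ± 1.39 CPM in controls and 5.72 ± 4.33 CPM on cholate and did not pass (log2 1.78, adjusted p = 0.130 by edgeR), while DESeq2 called 1 muscle gene higher. Of the 16 epithelial markers, 4 rose at an adjusted p under 0.05 (edgeR), among them Krt20 and Car1 of mature colonocytes, and 0 fell. Summed levels in controls and on cholate were 12.8 to 27.4 and 7.31 to 12.0 CPM for endothelium and blood, 3.32 to 8.28 and 1.44 to 2.81 CPM for enteric neurons and glia, and 5.82 to 8.60 and 4.34 to 7.93 CPM for fibroblasts. They were 5.86 to 12.2 and 4.38 to 20.2 CPM for T and B cells, 229 to 301 and 252 to 313 CPM for macrophages and granulocytes, and 77.8 to 227 and 95.2 to 305 CPM for small intestinal enterocytes. At an adjusted p under 0.05 by edgeR 1 of 3 tested endothelium and blood genes fell (Vwf, log2 -1.69). So did 1 of 2 for fibroblasts (Col1a1, log2 -2.56) and 1 of 2 for neurons and glia. Of 4 small intestinal genes 2 rose and 1 fell, and 0 of 5 T and B cell and 0 of 8 macrophage and granulocyte genes passed. The shares of all tested genes were 6.48% higher and 7.28% lower. The part of these markers in the carriers' results was not tested. In bulk RNA fewer cells of a type and less RNA per cell cannot be told apart.

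**Figure D3:**
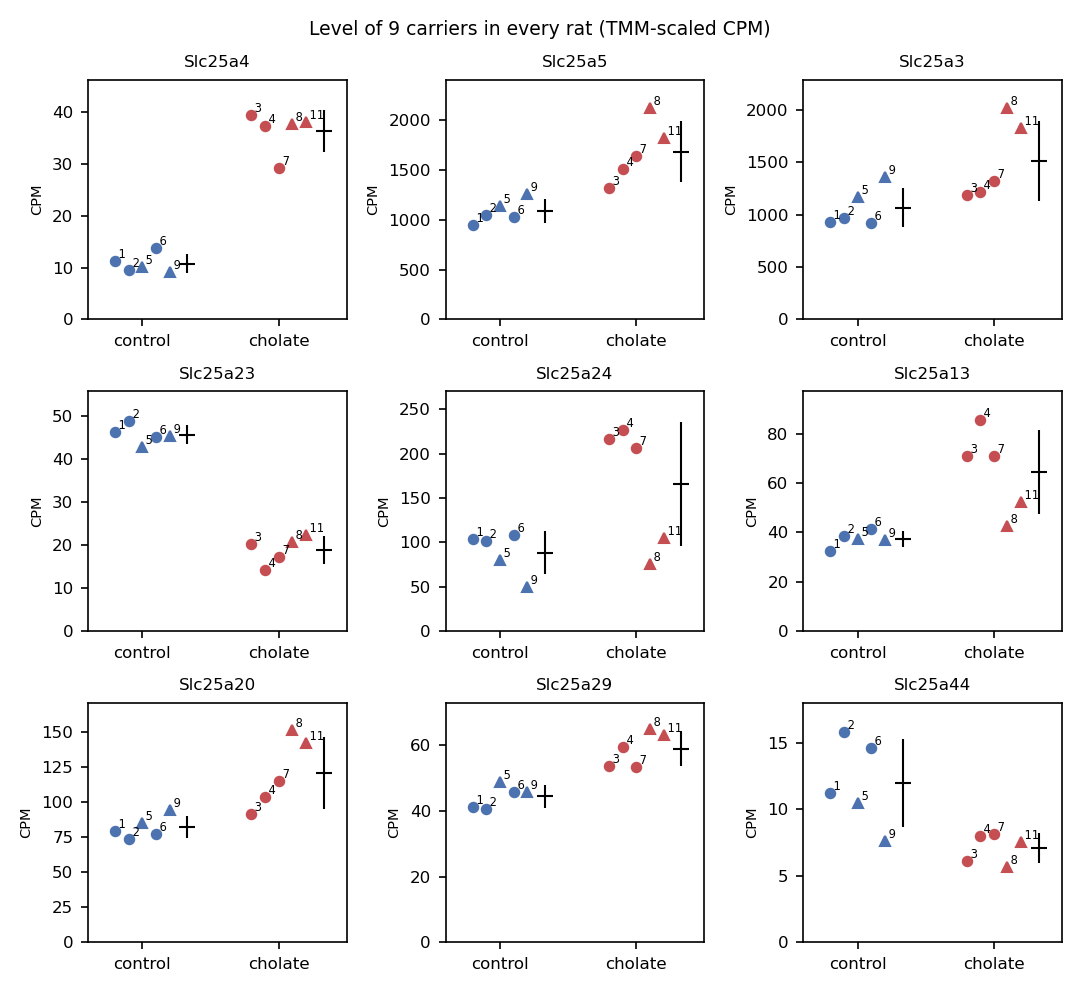
TMM-scaled CPM of 9 carriers in each rat (blue control, red cholate, rat numbers beside the points; triangles are control rats 5 and 9 and cholate rats 8 and 11), with the mean and SD of each diet in black. Slc25a4 and Slc25a23 separate the diets with wide gaps, while in Slc25a24 and Slc25a13 cholate rats 8 and 11 lie well below cholate rats 3, 4 and 7.

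The ATP-Mg/phosphate carriers, which adjust the adenine nucleotide content of the matrix in response to calcium, did not move together. Slc25a23 (rn6 chromosome 9, 9987988 to 10003599, plus strand, 11 exons) had 46.2, 48.9, 42.8, 45.1 and 45.3 CPM in the control rats. It had 20.3, 14.1, 17.2, 20.7 and 22.2 CPM in the cholate rats. The groups were far apart and the controls lay within a narrow band. Slc25a23 fell by 1.27 on the log2 scale (SE 0.14, adjusted p = 0.000768 by edgeR). The log2 fold change was -1.42 in the 6 rats and -1.08 in the 4. The stricter call was kept in all 10 fits without one rat and in 13 of the 14 other settings, the exception being the 4 rats alone.

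Slc25a24, the most abundant of this group per kilobase, had 103, 102, 79.4, 108 and 49.5 CPM in control rats and 216, 227, 206, 75.7 and 105 CPM in cholate rats. Cholate rats 3, 4 and 7 were far above the highest control, whereas cholate rat 8 lay below 4 of the controls. The log2 fold change was 0.91 (SE 0.32) and did not pass (adjusted p = 0.0881 by edgeR). It was 1.08 in the 6 rats, where it met the stricter rule, and 0.45 in the 4. DESeq2, the edgeR exact test, quality weights, 1 surrogate variable and the division in the model also called it at an adjusted p under 0.05, and so did the fit without cholate rat 8.

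Slc25a25, the third of them, was at 19.4 ± 2.28 CPM in controls and 20.5 ± 7.97 CPM on cholate (SD, n = 5), and its log2 fold change was 0.08 (adjusted p = 0.868 by edgeR). Slc25a23 made up 26.0, 26.7, 28.2, 24.4 and 37.8% of the summed level per kilobase of these 3 carriers in the control rats. On cholate it made up 6.83, 4.86, 6.43, 17.3 and 14.1%. No cholate rat reached the lowest control share. Slc25a41, a carrier of the same group that lies beside Slc25a23 on chromosome 9, was listed at 0.

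The promoters of these unequal pairs are shown because a member of each pair was called under the stricter rule: the 250 bases before the start of each gene from RefSeq on build GRCr8, which is not the build of the counts. Capitals mark matches, on either strand, to the ETS letters CCGGAAG, the CCAAT box CCAAT and the SP1 letters GGGCGG. The windows are chr16:52805271-52805520, plus strand, for Slc25a4, chrX:120897366-120897615, plus strand, for Slc25a5, chr9:1985366-1985615, minus strand, for Slc25a23, and chr2:199449175-199449424, plus strand, for Slc25a24.
Slc25a4: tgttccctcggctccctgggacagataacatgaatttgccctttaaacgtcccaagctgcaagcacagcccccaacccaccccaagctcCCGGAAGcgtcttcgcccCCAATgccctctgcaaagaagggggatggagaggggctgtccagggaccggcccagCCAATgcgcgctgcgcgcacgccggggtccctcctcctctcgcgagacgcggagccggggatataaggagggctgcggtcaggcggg
Slc25a5: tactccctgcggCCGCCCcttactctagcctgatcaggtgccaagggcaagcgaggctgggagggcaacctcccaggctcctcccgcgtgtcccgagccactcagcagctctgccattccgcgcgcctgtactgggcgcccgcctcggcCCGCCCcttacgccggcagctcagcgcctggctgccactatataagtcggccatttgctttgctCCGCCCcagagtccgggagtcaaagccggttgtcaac
Slc25a23: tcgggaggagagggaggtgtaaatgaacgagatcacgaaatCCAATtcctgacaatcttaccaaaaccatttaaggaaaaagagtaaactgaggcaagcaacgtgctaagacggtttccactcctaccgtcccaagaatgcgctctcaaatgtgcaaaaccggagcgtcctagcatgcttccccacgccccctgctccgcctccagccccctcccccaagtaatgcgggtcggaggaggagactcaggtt
Slc25a24: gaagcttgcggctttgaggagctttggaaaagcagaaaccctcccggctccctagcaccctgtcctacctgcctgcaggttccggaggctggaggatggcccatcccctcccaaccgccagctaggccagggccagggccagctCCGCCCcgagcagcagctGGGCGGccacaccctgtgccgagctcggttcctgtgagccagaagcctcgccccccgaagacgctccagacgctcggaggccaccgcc

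Slc25a4 held an ETS match at -161 and CCAAT matches at -143 and -87 from the start, and no SP1 match. Slc25a5 held SP1 matches at -238, -101 and -37 and neither of the others. Slc25a23 held a CCAAT match at -209, and Slc25a24 held SP1 matches at -106 and -88. RefSeq promoters were matched for 41 of the 49 carriers. Among them 21 held CCAAT (51.2%, against 34.0% of all 33469 promoters), 23 held GGGCGG (56.1% against 30.5%) and 6 held CCGGAAG (14.6% against 7.27%). The NRF1 palindrome, GCGCA followed by its reverse complement, was in 0 carrier windows and 0.76% of all, the estrogen-related receptor letters AAGGTCA in 1 and 3.99%, the CRE letters TGACGTCA in 2 and 1.59%, the E-box CACGTG in 4 and 5.59%, and the TATA box TATAAA in 2 and 12.93%. No match overlapped another. The carrier windows had a median GC content of 56.8%, against 51.2% for all promoters. These matches describe letters only.

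None of the 5 tested carriers of tricarboxylates, dicarboxylates and oxoglutarate passed either rule, although all 5 log2 fold changes were positive (median 0.46, against -0.01 for all tested genes). At an unadjusted p under 0.05 by edgeR there were 2, both higher. The share of all tested genes at that unadjusted threshold was not worked out, here or for the lists below. It is at least the 13.8% called at an adjusted p under 0.05. DESeq2 called 1 of them, Slc25a1, at an adjusted p under 0.05, and the edgeR exact test and limma-voom called 0. With the division of the libraries in the model, and with 1 surrogate variable, Slc25a1, Slc25a11 and Slc25a35 were called at that threshold, and quality weights called Slc25a1. Of all 12385 tested genes DESeq2 called 2669 in either direction, the exact test 2005 and limma-voom 1898. Quality weights called 4605, the division 4416 and 1 surrogate variable 4454. These numbers are the background for the groups below as well. Slc25a10 had 209, 229, 292, 204 and 292 CPM in control rats and 199, 258, 260.4, 400.5 and 334 CPM in cholate rats, with overlap (log2 0.24, adjusted p = 0.454 by edgeR). Slc25a11 had 110.5, 119, 132, 115 and 161 CPM in control rats and 123, 126, 139.6, 223 and 197 CPM in cholate rats (log2 0.34, adjusted p = 0.265). In both genes control rats 5 and 9 were the highest controls and cholate rats 8 and 11 the highest on cholate, and the ranges overlapped.

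Slc25a1, which exports citrate for cytosolic acetyl-CoA, had 55.7, 59.6, 70.5, 60.3 and 81.0 CPM in control rats and 78.3, 73.6, 76.2, 157 and 127 CPM in cholate rats. Only control rat 9 exceeded any cholate rat, and the log2 fold change of 0.65 (SE 0.23) did not pass (adjusted p = 0.0885 by edgeR). It was 0.41 in the 6 rats and 0.86 in the 4, and Slc25a1 was called at an adjusted p under 0.05 (edgeR) in each of these sets alone. Slc25a34 and Slc25a35, whose substrates are less settled, had log2 fold changes of 0.58 and 0.46. Both were called at an adjusted p under 0.05 (edgeR) without cholate rat 3. Slc25a34 was also called in the 4 rats, where its log2 fold change was 0.97, against 0.27 in the 6. Slc25a21, the oxodicarboxylate carrier, had 2 reads, both in control rat 6.

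Of the 7 tested amino acid carriers, 2 rose and 1 fell at an adjusted p under 0.05, beside 6.48% and 7.28% of all tested genes. Slc25a13, an aspartate-glutamate carrier of the malate-aspartate shuttle (rn6 chromosome 4, 31134165 to 31757006, minus strand, 18 exons), had 32.3, 38.3, 37.3, 41.4 and 37.0 CPM in control rats. It had 70.9, 85.6, 70.8, 42.7 and 52.3 CPM in cholate rats. The groups did not overlap, although cholate rat 8 lay just above the highest control. It rose by 0.79 on the log2 scale (SE 0.18, adjusted p = 0.0174 by edgeR), with 1.05 in the 6 rats, where it met the stricter rule, and 0.32 in the 4. The looser call was lost without control rat 1 or control rat 5, and in the 4 rats alone, while leaving out one rat gave 0.67 to 0.92.

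Its paralog Slc25a12 was at 45.1 ± 7.96 CPM in controls and 43.4 ± 5.23 CPM on cholate (log2 -0.05, adjusted p = 0.860 by edgeR). Slc25a13 was 45.9 ± 4.11% (SD, n = 5) of the summed level per kilobase of both in controls and 59.5 ± 4.03% on cholate. The lowest cholate share, 54.4%, was above the highest control share, 49.7%.

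Slc25a29, a carrier of basic amino acids (rn6 chromosome 6, 132736964 to 132747912, minus strand), had 41.1, 40.5, 48.9, 45.7 and 45.6 CPM in control rats and 53.7, 59.5, 53.4, 64.9 and 62.9 CPM in cholate rats. The groups did not overlap. It rose by 0.41 on the log2 scale (SE 0.11, adjusted p = 0.0371 by edgeR), with 0.42 in the 6 rats and 0.40 in the 4. The looser call was lost in 6 of 10 fits that left out one rat (control rat 1, 2 or 6, or cholate rat 4, 8 or 11) and in 4 of the 14 other settings (upper quartile scaling, no filter, the exact test and the 4 rats alone). Leaving out one rat gave values of 0.38 to 0.44.

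Slc25a44, a carrier of branched-chain amino acids (rn6 chromosome 2, 187772013 to 187786829, minus strand), had 11.3, 15.9, 10.5, 14.6 and 7.62 CPM in control rats and 6.13, 8.03, 8.17, 5.70 and 7.52 CPM in cholate rats. Control rat 9 lay below cholate rats 4 and 7, so the groups overlapped. It fell by 0.75 on the log2 scale (SE 0.22, adjusted p = 0.0455 by edgeR), and the looser call was kept only when control rat 9 was the one left out, with values of -0.88 to -0.63. Among the 14 other settings it was lost with no filter and in the 4 rats alone. The log2 fold change was -0.87 in the 6 rats and -0.50 in the 4. The remaining tested members, the ornithine carriers Slc25a15 and Slc25a2 and the glycine carrier Slc25a38, had log2 fold changes of 0.04, -0.34 and 0.48 and did not pass, although Slc25a38 was called higher with 1 surrogate variable and with the division in the model.

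Slc25a20, the carnitine-acylcarnitine carrier (rn6 chromosome 8, 117455308 to 117476762, plus strand, 9 exons), had 79.6, 74.0, 85.2, 77.5 and 94.3 CPM in control rats. It had 91.4, 103, 115, 151 and 142 CPM in cholate rats. Only control rat 9 exceeded any cholate rat, namely cholate rat 3. It rose by 0.55 on the log2 scale (SE 0.15, adjusted p = 0.0355 by edgeR). The values were 0.45 in the 6 rats and 0.67 in the 4. The looser call was lost in 5 of 10 fits without one rat (control rat 1, 2 or 6, or cholate rat 7 or 11), in which the value stayed within 0.46 to 0.64. It was kept in 13 of the 14 other settings, the exception being the 4 rats alone. Slc25a45, at 0.884 ± 0.332 CPM in controls, did not pass (log2 0.04).

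None of the 9 tested cofactor and nucleotide carriers passed either rule, and 6 of their log2 fold changes were negative (median -0.34). At an unadjusted p under 0.05 by edgeR there were 3, all lower. DESeq2 and limma-voom each called Slc25a17 and Slc25a42 at an adjusted p under 0.05, and the exact test called 0. In all, Slc25a17 was called in 10 of the 14 other settings and in 3 of 10 fits without one rat. Slc25a42 was called in 7 of the 14 and in 1 of the 10. Quality weights called Slc25a17, Slc25a33 and Slc25a42 lower and Slc25a32 higher. With the division in the model Slc25a17, Slc25a33, Slc25a36 and Slc25a42 were called lower, as was Slc25a36l1, which is not one of these 9. Slc25a17 (rn6 chromosome 7, 122539293 to 122581777, minus strand) had 74.2, 64.6, 69.5, 65.5 and 70.3 CPM in control rats and 50.6, 48.6, 46.3, 62.6 and 58.3 CPM in cholate rats. The groups did not overlap, yet its log2 fold change of -0.37 (SE 0.12) missed the looser threshold (adjusted p = 0.0631 by edgeR). The coenzyme A carrier Slc25a42 likewise showed no overlap, with 11.2 ± 0.958 CPM in controls and 8.03 ± 1.31 CPM on cholate (SD, n = 5; log2 -0.48, adjusted p = 0.0702).

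The pyrimidine nucleotide carriers Slc25a33 and Slc25a36 had log2 fold changes of -0.57 and -0.52. Slc25a36l1, a gene with a symbol like that of Slc25a36, had 16.5 ± 6.69 CPM in controls and 11.4 ± 5.83 CPM on cholate (SD, n = 5), with a log2 fold change of -0.53 (SE 0.42). Both Slc25a36 and Slc25a36l1 were lowest in cholate rats 8 and 11 and in control rat 9. How alike the sequences of the pair are was not checked here, and reads may be shared between them. The carriers of folate (Slc25a32) and S-adenosylmethionine (Slc25a26) and the coenzyme A-linked Slc25a16 had log2 fold changes of 0.36, 0.36 and 0.24. Slc25a52 had -0.22.

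None of the 4 iron and glutathione carriers passed, with 0 at an unadjusted p under 0.05 by edgeR and 0 called by DESeq2, the exact test or limma-voom. Slc25a28 was called lower with quality weights, under both rules, and at an adjusted p under 0.05 with 1 surrogate variable and with the division in the model. Slc25a39 had 69.2, 75.8, 75.5, 64.3 and 105 CPM in control rats and 69.7, 71.1, 77.2, 132 and 108 CPM in cholate rats, with wide overlap (log2 0.23, adjusted p = 0.511 by edgeR). Slc25a28, a carrier that brings iron into the matrix, had 48.2, 35.0, 55.4, 34.2 and 88.1 CPM in control rats and 18.7, 18.3, 19.0, 53.2 and 46.9 CPM in cholate rats. Cholate rats 3, 4 and 7 lay below every control, but cholate rats 8 and 11 lay within the control range. Its log2 fold change was -0.74 (SE 0.39, adjusted p = 0.233 by edgeR), and it was -1.04 in the 6 rats, where it met the stricter rule, and -0.56 in the 4. The other iron carrier Slc25a37 and the glutathione carrier Slc25a40 had log2 fold changes of -0.05 and 0.19.

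The carriers that resemble uncoupling proteins, Slc25a14 and Slc25a30, had log2 fold changes of -0.48 and 0.28, and Slc25a43 and the outer membrane protein Slc25a46 had -0.10 and 0.20. None of these passed (edgeR, 0 at an unadjusted p under 0.05, and 0 called by DESeq2, the exact test or limma-voom), although Slc25a14 was called lower at an adjusted p under 0.05 with quality weights, 1 surrogate variable and the division in the model. Across the family, 9 carriers were higher in the 4 rats with positive scores than in the other rats of the same diet, in both diets, beside 23% of all tested genes, and 7 were lower in both, beside 22.1%. Slc25a3, Slc25a10, Slc25a11, Slc25a20 and Slc25a5 were among those higher, and Slc25a24, Slc25a36 and Slc25a46 among those lower.

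**Figure D4:**
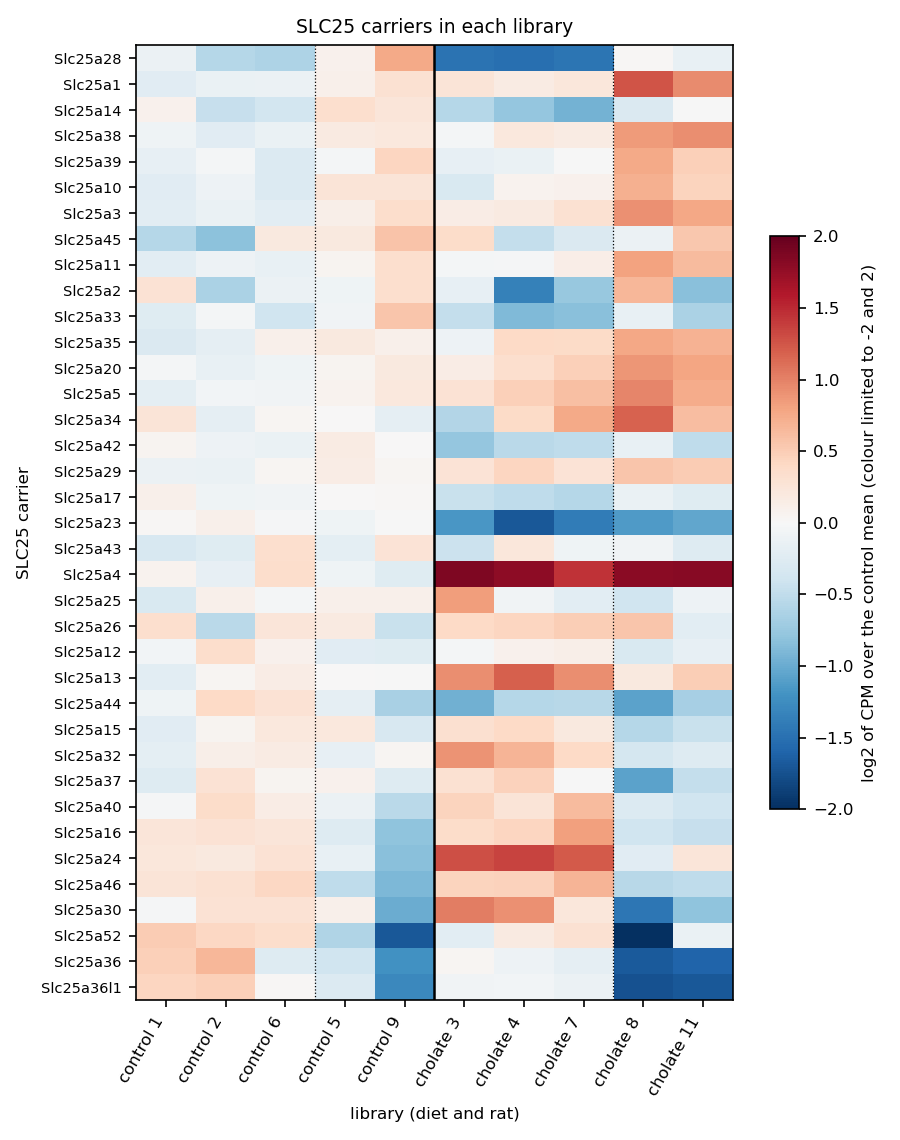
log2 of each carrier's CPM over its control mean in every library, with 37 tested carriers in rows; the solid line parts the diets and the dotted lines part control rats 5 and 9 and cholate rats 8 and 11 from the others. Slc25a4 and Slc25a23 hold 1 colour across all 5 cholate rats, whereas Slc25a24 and Slc25a28 differ between cholate rats 3, 4 and 7 and cholate rats 8 and 11.

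The 7 carriers with too few reads to be tested had 1 to 45 reads each. Over the 10 libraries Slc25a54 had 45 reads, Slc25a48, a choline carrier, 28, Slc25a47 16 with 10 of them in cholate rat 4, Slc25a27 5, and Slc25a53 4. The remaining pair, Slc25a21 and Slc25a31, had the reads given above. Slc25a53 has only 9 coding bases in the deposited annotation, so its count says little about its level. A count of 0 allows 3 counts, which is 0.0616 CPM in the deepest library and 0.228 CPM in the shallowest, and covers counting error only.

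The 4 carriers listed at 0 are the glutamate carriers Slc25a18 and Slc25a22, the NAD carrier Slc25a51 and Slc25a41, and a value of 0 need not mean silence. Slc25a22 (rn6 chromosome 1, 214410388 to 214418236, minus strand) lies in a run of 11 neighbouring genes that were all listed at 0, among them Rplp2, a ribosomal protein gene that every cell uses. A second run of 11 genes on the same chromosome, whose coding lengths equal those of the first run for 11 of 11, was also at 0, and includes LOC100911440, annotated as mitochondrial glutamate carrier 1. Slc25a51 has the same coding length as Mcart1, LOC100910864 and RGD1565119, and all 4 were listed at 0. No sequences were compared, and whether reads of Slc25a22 or Slc25a51 were lost to close copies was not tested. Their levels are therefore left unstated, and in all 6442 genes of the table had no reads.

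Other proteins of the same fold lacked an Slc25a symbol. Ucp2, an uncoupling protein, had 477 ± 134 CPM in controls and 528 ± 204 CPM on cholate (SD, n = 5; log2 0.15, adjusted p = 0.778 by edgeR) and did not pass. Mtch2, an outer membrane relative that inserts proteins, rose from 219 ± 30.0 to 332 ± 54.9 CPM (log2 0.60, SE 0.14, adjusted p = 0.0185), without overlap. Ucp1 was listed at 0. These relatives were left out of the order, the shares and the counts of carriers given above. Per kilobase of coding length (930 bases) the control mean of Ucp2 would lie between those of Slc25a3 and Slc25a10. That of Mtch2 (852 bases) would lie between Slc25a10 and Slc25a11.

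Newly made carriers reach the inner membrane through a dedicated import machinery. Of its 12 tested genes 6 rose and 0 fell at an adjusted p under 0.05, beside 6.48% and 7.28% of all tested genes. Their median log2 fold change was 0.58 against -0.01 for all tested genes. Tomm40, the pore of the outer membrane, went from 55.4 ± 14.7 to 129.8 ± 32.7 CPM (log2 1.23, adjusted p = 0.00519 by edgeR). Timm22, the core of the carrier translocase, had a log2 fold change of 0.76 (adjusted p = 0.00843), the chaperone Timm8a1 0.88 (0.0160) and the receptor Tomm20 0.63 (0.0275).

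Of 30 tested nuclear genes of the respiratory chain and ATP synthase, which the ADP/ATP and phosphate carriers serve, 15 rose and 0 fell at an adjusted p under 0.05 (median log2 0.60). The shares of all tested genes were 6.48% higher and 7.28% lower. Uqcrc2, a core subunit of complex III, rose by 0.46 (adjusted p = 0.00858 by edgeR), the ATP synthase subunit Atp5a1 by 0.61 (0.0127), the cytochrome oxidase subunit Cox5a by 1.32 (0.0128) and the Rieske protein Uqcrfs1 by 0.79 (0.0134). The 13 genes encoded in mitochondrial DNA took 15.9% to 23.6% of counts in control rats and 11.7% to 18.7% on cholate. Of 14 tested mitochondrial biogenesis factors 0 passed an adjusted p under 0.05 and 1 an unadjusted p under 0.05 (edgeR), and DESeq2, the exact test and limma-voom called 0, while quality weights called 1 higher and 2 lower. Ppargc1a, a coactivator of mitochondrial genes and the one with the largest change relative to its error, was at 72.5 ± 32.6 CPM in controls and 35.9 ± 17.4 CPM on cholate (log2 -1.01, SE 0.42, adjusted p = 0.136 by edgeR), and was named after its value was seen.

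Of 29 tested enzymes and transporters that work with the carriers, 10 rose and 2 fell at an adjusted p under 0.05 (median log2 0.48). The shares of all tested genes were 6.48% higher and 7.28% lower. Arg2, the mitochondrial arginase, rose by 3.29 on the log2 scale (SE 0.28, adjusted p = 0.00031 by edgeR), and Oat, ornithine aminotransferase, fell by 0.85 (adjusted p = 0.00420), while the ornithine carrier Slc25a15 stood at 0.04. Slc22a5, which brings carnitine into the cell, went from 78.1 ± 22.5 to 15.8 ± 4.44 CPM (log2 -2.30, adjusted p = 0.000722), opposite in sign to the mitochondrial carrier Slc25a20.

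The enzymes of acylcarnitines and of the malate-aspartate shuttle in the list are named because their carriers were called, a choice made after their values were seen. Cpt2, which takes acylcarnitines delivered by Slc25a20, rose by 0.74 on the log2 scale (adjusted p = 0.0307 by edgeR). Cpt1a, which makes acylcarnitines at the outer membrane, and Crat, which acts on short ones, did not pass (log2 0.02 and 0.49, adjusted p = 0.980 and 0.118 by edgeR). The malate-aspartate shuttle enzymes Mdh2, Got1 and Got2, which work with Slc25a13, rose by 0.82, 0.79 and 0.39 (adjusted p = 0.0118, 0.0121 and 0.0371). Mdh1, the cytosolic malate dehydrogenase of the same shuttle, did not pass (log2 0.48, adjusted p = 0.0703 by edgeR).

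**Figure D5:**
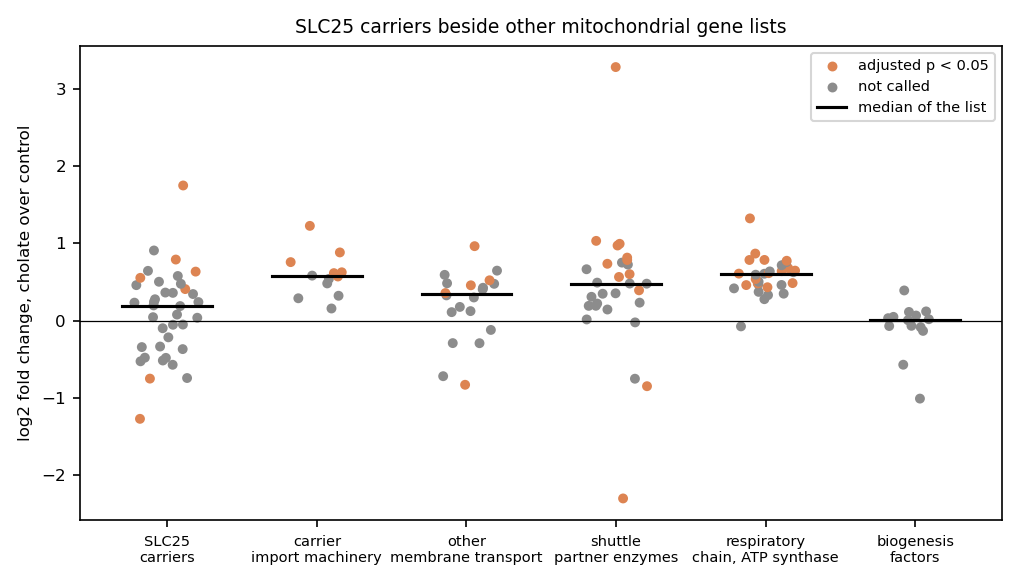
log2 fold change (cholate over control, 5 rats per diet) of the tested genes in 6 lists, with orange points for an adjusted p under 0.05 and a black bar at each list's median. The carriers spread to both sides of 0 around a median of 0.19, while the import machinery and the respiratory chain have called genes above 0 alone.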

How the data were processed

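The deposited table gives raw read counts for each gene. It also gives the authors' normalized signal, CPM on TMM-effective library sizes, which was used here only to read their scaling. Lengths and coordinates are other deposited columns in bases. Per the submitters' processing notes, bcl2fastq 1.8.4, BWA 0.7.12-r1039 and edgeR 3.16.2 were used on build rn6. The sources used here do not give how reads were counted or whether strand was used. Genes with close copies are uncertain. The length column of the deposited table equals the merged coding length in 100% of genes. No member's coding bases lie under the exons of another gene.

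Low counts were removed (filterByExpr, by diet), TMM factors were computed, and diets were compared with the quasi-likelihood F test of edgeR 4.0.16 in R 4.3.3 (robust fit, diet as the only term, all 10 libraries), with Benjamini-Hochberg adjustment over 12385 genes. SE is approximate, taken as the size of the log2 fold change divided by the root of F. Calls used an adjusted p under 0.01 with a fold over 2, the criteria in the design text, or an adjusted p under 0.05. The method was also run on simulated counts, which varied less between rats than these data and held no division of the libraries. That run therefore does not show how well the method performs on these libraries. Total counts per library were 14337356 to 45285762. Alternatives used limma 3.58.1, DESeq2 1.42.0 and sva 3.50.0, other scalings and filters, each rat left out, and the library divisions.

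Values in every rat are given for carriers called under either rule and for the 8 highest per kilobase in controls, and from each other list up to 4 called genes with the smallest adjusted p are named. Slc25a24 and Slc25a28 were also given in every rat after their values were seen. The values of 1 tested carrier and 1 enzyme are not reported here, though both stay in the fits and counts. Members and lists were chosen with earlier results of these data known.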

Additional observations from a re-analysis of the deposited data

Results flagged for a closer look

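In 4 of 76 groups examined (38 carriers in each diet) 1 rat lay far from the other 4, where chance alone flags about 1 in 20 groups. Slc25a4 was 29.2 CPM in cholate rat 7 and 37.3 to 39.4 CPM in the other cholate rats, still above every control. Slc25a25, the calcium-regulated ATP-Mg/phosphate carrier, was 34.5 CPM in cholate rat 3 and 14.6 to 18.4 CPM in the others, and without cholate rat 3 its log2 fold change was -0.19. Slc25a39, a glutathione carrier, was 104.6 CPM in control rat 9 and 64.3 to 75.8 CPM in the other controls. Slc25a26, the S-adenosylmethionine carrier, was 2.51 CPM in cholate rat 11 and 3.84 to 4.26 CPM in the others.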

How the results depend on the processing

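No paired analysis was possible because the diets have no rat number in common, so no replicate block could be fitted. Slc25a4 and Slc25a23 kept their direction under every alternative run, and the 8 leading carriers per kilobase were the same in all settings except the control median and the fit without control rat 9, where Slc25a24 replaced Slc25a1. The count of all genes at an adjusted p under 0.01 with a fold over 2 (398) was 788 with DESeq2, 754 with the edgeR exact test, 1157 with limma-voom quality weights, 852 with 1 surrogate variable, 1003 in the 6 rats, 112 in the 4 rats, 829 with the division of libraries in the model, and 168 to 450 leaving out one rat. At an adjusted p under 0.05 (1704 genes) it was 1996 with library-size scaling, 2669 with DESeq2, 4605 with quality weights and 4454 with 1 surrogate variable. It was 4865 in the 6 rats, 471 in the 4 rats, 4416 with the division, and 969 to 2120 leaving out one rat. Carriers called under the strict rule (2) were 4 with quality weights, 5 in the 6 rats and 1 in the 4 rats. Carriers called at an adjusted p under 0.05 (7) were 11 with library-size scaling, 11 with DESeq2, 16 with quality weights, 19 with 1 surrogate variable, 14 in the 6 rats, 4 in the 4 rats, 20 with the division, and 3 to 9 leaving out one rat. The cause was not tested. Changes of sign concerned carriers not called with all 10 rats. In the 4 rats these were Slc25a15 (-0.51), Slc25a25 (-0.39), Slc25a30 (-0.79), Slc25a32 (-0.28), Slc25a40 (-0.061) and Slc25a45 (-0.18), on the log2 scale. Others were Slc25a12 with a length offset (0.056), Slc25a15 with the division (-0.00614), Slc25a37 with quality weights (0.17) and in the 6 rats (0.25), Slc25a43 likewise (0.00401 and 0.00300), and Slc25a45 with library-size scaling (-0.000726). Leaving out one rat gave -0.11 to 0.048 for Slc25a12, -0.068 to 0.17 for Slc25a15, -0.19 to 0.19 for Slc25a25, -0.22 to 0.14 for Slc25a37, -0.20 to 0.00465 for Slc25a43, -0.10 to 0.20 for Slc25a45 and -0.42 to 0.062 for Slc25a52. Carriers under 2 CPM rest on few reads.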

Other observations

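Of 20 tested genes for other transport across the mitochondrial membranes, 4 rose and 1 fell at an adjusted p under 0.05 (edgeR), beside 6.48% and 7.28% of all tested genes, and the median log2 fold change was 0.34 against -0.01. The other 15, among them the outer membrane channel gene Vdac1 (log2 0.12, adjusted p = 0.736), did not pass. Sfxn3, a sideroflexin, fell by 0.83 (adjusted p = 0.00358) while its relative Sfxn1, a serine transporter, rose by 0.96 (adjusted p = 0.0324). Abcb8, an ABC transporter, rose by 0.52 (0.0289), and Mpc1, a subunit of the pyruvate carrier, rose by 0.46 (0.0431).

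Of 10 tested genes of the integrated stress response, which responds to mitochondrial and amino acid stress, 2 rose under the stricter rule and none fell. Under it 1.1% of all tested genes rose and 2.12% fell. At an unadjusted p under 0.05 by edgeR 6 genes of the list were higher and 1 lower. The share of all tested genes at that unadjusted threshold was not worked out. It is at least the 13.8% called at an adjusted p under 0.05. At an adjusted p under 0.05 quality weights called 4 of them higher and 2 lower. DESeq2 called 4 higher, the exact test 3 and limma-voom 2. Of all 12385 tested genes quality weights called 4605 in either direction, DESeq2 2669, the exact test 2005 and limma-voom 1898. Psat1, an enzyme of serine synthesis, went from 1.06 ± 0.465 to 5.30 ± 1.81 CPM (SD, n = 5; log2 2.33, adjusted p = 0.00378 by edgeR). Trib3, a pseudokinase, went from 1.77 ± 0.181 to 5.28 ± 1.82 CPM (log2 1.57, adjusted p = 0.00333). The transcription factors of the pathway, Atf4, Atf5 and Ddit3, did not pass.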
